A study of Mus musculus with 42 samples.

Results

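Partly methylated gene ends are described here: tiles of 100 bp whose mean methylation over 9 bisulfite libraries lay from 25 to 75% and that lay within 1000 bp of the start or end coordinate of a gene in the expression table of the same study. Of 141251 tiles in the methylation table, 51448 lay that close to a gene end, and 2729 of these (5.304%) were partly methylated. The tiles were chosen by their measured mean methylation level, so their levels are given as a description without a test. The tiles were nearest to 1926 of the 12883 genes with coordinates in the expression table, 2490 of them reached a single gene, and 239 reached 2 or more.

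The study exposed C57BL/6 males, 8 weeks old at the start, to di(2-ethylhexyl) phthalate (DEHP, a plasticizer) for 67 days before mating, at 2.5 mg/kg/day (low) or 25 mg/kg/day (high), beside unexposed males (control). The labels list 42 samples: reduced representation bisulfite sequencing (a method that samples CpG-rich parts of the genome) of sperm at 14 weeks and of embryonic and extra-embryonic tissue of E7.5 offspring, and RNA sequencing of both E7.5 tissues. All samples are labelled male and wild type, and the offspring carry a C57BL/6 * DBA/2J background. The methylation table held 3 libraries per group, and that of expression held 2. Their column names give treatment and a number and no tissue, so the tissue of the methylation libraries is not known here and methylation and expression may come from different tissues. Listed in the expression table were all epiblast markers (7 of 7), streak and mesoderm markers (7 of 7) and visceral endoderm markers (8 of 8). Summed epiblast markers were at 1851 to 2198 CPM (counts scaled to a common library total) in control, 1897 to 2416 in low and 1499 to 1729 in high libraries. Streak and mesoderm markers summed to 566 to 573, 587 to 641 and 423 to 511 CPM, and visceral endoderm markers to 1060 to 2258, 1714 to 2022 and 1788 to 2423 CPM. The high libraries thus lay under the others in epiblast and in streak and mesoderm markers, and the groups overlapped in visceral endoderm markers. Of 7 trophoblast markers 5 were listed, with Elf5 and Tpbpa absent. They summed to 11.3 to 27.1 CPM in control, 14.2 to 81.4 in low and 16.7 to 23.1 in high libraries. The higher low library thus stood above all others. Of 7 decidua markers 6 were listed (Prl8a2, Des, Hand2, Cebpb, Pgr and Bmp2), with Dcn absent. They summed to 31.5 to 35.4 CPM in control, 32.5 to 35.7 in low and 39.2 to 40.6 in high libraries, the high ones above the others. Hand2 and Bmp2 also stand in the list of gastrulation regulators used below, so this sum is not specific to decidua. Of 5 sperm markers none was listed. Whether the samples of 1 group came from separate fathers or litters is not stated in the names, so p-values measure the spread between these libraries.

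DNA methylation in mammals sits mostly on cytosines of CpG dinucleotides. Start sites of expressed genes often lie in CpG-dense islands that carry little methylation, whereas gene bodies and the ends of genes are usually methylated. Intermediate levels in a bulk sample can arise where cells differ, or where the copies from mother and father differ. The latter is known at the control regions of imprinted genes. The value of a tile is taken over the CpGs it holds, so CpGs of unlike level within a tile can give a middle value too. Which of these applied to the members was not tested. In bulk tissue a change in the mix of cells and a change of methylation within a cell type cannot be told apart.

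Sequence was taken for tiles that lie wholly in a RefSeq promoter window of GRCm38.p6, which held 148 of the 2729 tiles. Surf6, D130017N08Rik and Zrsr1 are shown because the first 2 stood among the lowest p-values of the high group and Zrsr1 is an imprinted gene, and a tile next to that of Surf6 is added for contrast. Each sequence runs 5′ to 3′ in the direction of its gene, with every CpG in capitals.
Surf6 tile, chr2:26902901-26903000, minus strand, 14 bp upstream of the RefSeq start: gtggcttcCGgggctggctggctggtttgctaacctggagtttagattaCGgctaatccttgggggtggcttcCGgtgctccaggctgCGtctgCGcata
Next upstream tile of Surf6, chr2:26903001-26903100, minus strand: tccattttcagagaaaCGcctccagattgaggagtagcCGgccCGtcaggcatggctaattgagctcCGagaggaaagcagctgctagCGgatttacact
D130017N08Rik tile, chr5:143758201-143758300, plus strand, 54 bp upstream of the start and inside the span of Usp42: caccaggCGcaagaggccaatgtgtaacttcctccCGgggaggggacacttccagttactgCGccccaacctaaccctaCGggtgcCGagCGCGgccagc
Zrsr1 tile, chr11:22971901-22972000, plus strand, 5 bp upstream of the start and inside the span of Commd1: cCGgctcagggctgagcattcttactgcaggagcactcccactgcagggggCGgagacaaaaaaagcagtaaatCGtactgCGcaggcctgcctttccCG
The Surf6 tile held 5 CpGs and had a mean methylation of 37.8%, and the next tile also held 5 CpGs and had a mean of 14.0%. The D130017N08Rik tile held 7 CpGs at 37.3% and the Zrsr1 tile 5 at 50.9%.

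Within these promoter windows the partly methylated tiles held fewer CpGs than unmethylated ones. The 148 tiles had a median of 5 CpGs (quartiles 4 and 7.25) and a GC content of 62%. The 8081 tiles under 25% had a median of 10 CpGs (quartiles 7 and 13) and 68% GC, and the 5 tiles over 75% had 3 CpGs and 58% GC. Among tiles with up to 4 CpGs 9.58% were partly methylated, among those with 5 to 8 it was 2.53%, and among those with 9 or more 0.459%. These 148 tiles are 1 class near start sites and do not stand for the other members.

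Partly methylated tiles were a small share of gene ends and a large share of the rest of the table. Away from gene ends 35165 of 89803 tiles (39.158%) had a mean of 25 to 75%. At gene ends 47237 tiles lay under 25%, with a median of 3.32%, and 1482 lay over 75%, with a median of 86.4%. The 2729 members had a median of 40.1% (quartiles 30.1 and 57.7), and 1787 of them (65.5%) were under 50%. The partly methylated tiles elsewhere had a higher median, 59.8%. Members just inside the lower limit were tiles at Lamc1 (25.001%) and Metrn (25.012%), and just outside it lay tiles at Hpdl (24.994%) and Nlk (24.991%). At the upper limit Abcb1b (74.954%) and Kcp (74.905%) lay inside, and Bcdin3d (75.016%) and Hopx (75.022%) outside. At the distance limit tiles of Zfp503 and Hdac10 lay at 1000 bp, and those of Sema3f and Coro2a at 1001 and 1002 bp.

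Strand was known for the nearest gene of 2057 of the 2729 tiles (75.4%), too few to speak for all members, so the following holds for the tiles with a known strand. Near 5′ ends 1364 of 38061 tiles (3.58%) were partly methylated, and near 3′ ends 693 of 2481 (27.9%). Counted in single libraries the share in the same range was 3.77 to 4.78% near 5′ ends and 25.8 to 30.6% near 3′ ends, so the 2 ends did not overlap in any of the 9 libraries. The tiles near 5′ ends had a median methylation of 34.3% and those near 3′ ends 59.3%. Tiles over 75% were 0.187% near 5′ ends and 43.0% near 3′ ends. Relative to the nearest gene's span, 1695 members (62.1%) lay inside, 126 (4.62%) across its end and 908 (33.3%) outside. Outside lay 22.3% of the gene-end tiles under 25% and 28.5% of those over 75%.

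Around the start site the share of partly methylated tiles was lowest in the 250 bp on either side and higher with distance. It was 2.14% in the 250 bp upstream and 2.06% in the 250 bp downstream. Between 750 and 1000 bp it reached 22.5% upstream and 7.78% downstream. In single libraries these outer bins gave 20.9 to 23.9% and 8.22 to 9.36%. Around the 3′ end the share lay between 23.3 and 30.3% in every bin of 250 bp, with no such dip.

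**Figure D1:**
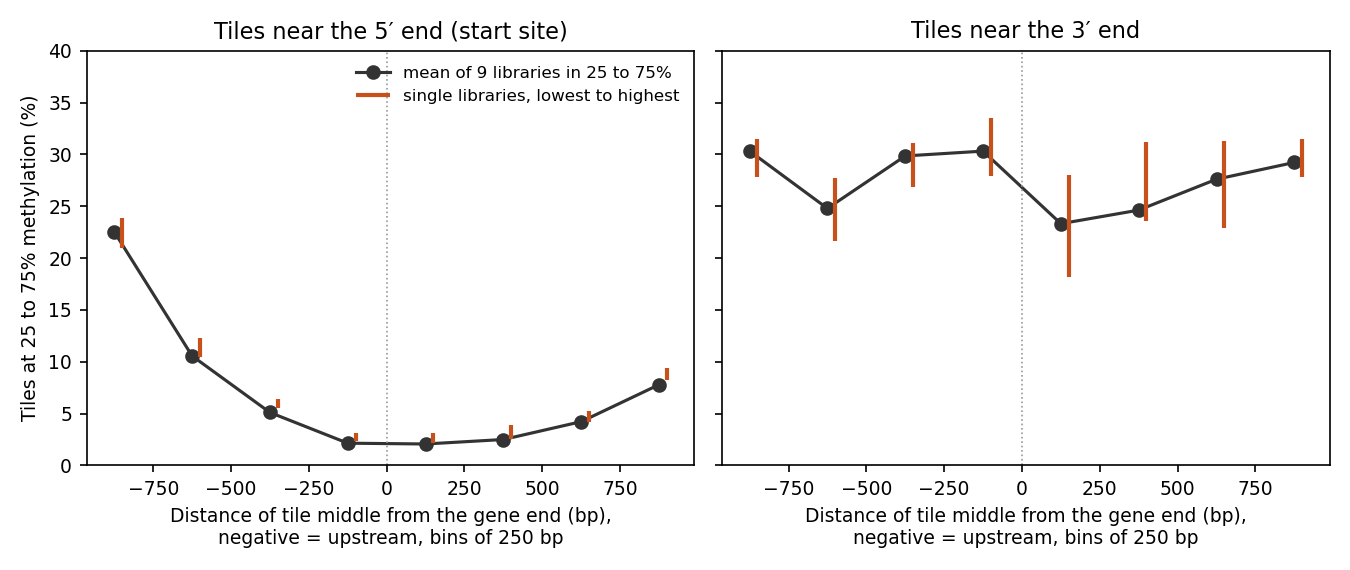
Share of gene-end tiles at 25 to 75% methylation (y axis, percent) by distance of the tile's middle from the gene end (x axis, bp, bins of 250 bp, negative is upstream in the gene's direction), for 5′ ends on the left and 3′ ends on the right. Points use the mean of the 9 libraries and bars span the lowest to highest single library; the share near 5′ ends is 2.06% just downstream of the start and 22.5% in the outermost upstream bin, and near 3′ ends it stays between 23.3 and 30.3%.

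Genes beside partly methylated tiles had lower expression than those beside unmethylated tiles. The median expression of the nearest gene was 12.6 CPM for members, 24.8 CPM for tiles under 25% and 24.1 CPM for tiles over 75%. In the 6 expression libraries the median ran from 12.2 to 13.1 CPM for members, from 24.4 to 25.2 CPM for unmethylated tiles and from 23.1 to 24.7 CPM for methylated tiles. These ranges did not overlap between members and the other classes. Pseudogenes were 2.46% of the genes with a known biotype beside members, 0.313% of those beside unmethylated tiles and 2.90% of those beside tiles over 75%.

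Genes with a gene-end tile were ranked by mean CPM and divided into 4 classes of equal size, with bounds at 7.85, 23.6 and 58.1 CPM. From the lowest to the highest class, the share of gene-end tiles that were partly methylated was 10.3, 5.24, 3.65 and 2.83%. Near 5′ ends it was 7.33, 3.35, 2.59 and 1.96%. Near 3′ ends it was 34.2, 28.3, 23.5 and 21.1%. The lowest class lay above the second in every library near 5′ ends (7.27 to 8.99% against 3.53 to 4.47%), and near 3′ ends the libraries of neighbouring classes overlapped. Of genes in the lowest class 29.5% had at least 1 partly methylated tile, and of genes in the highest 12.2%.

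**Figure D2:**
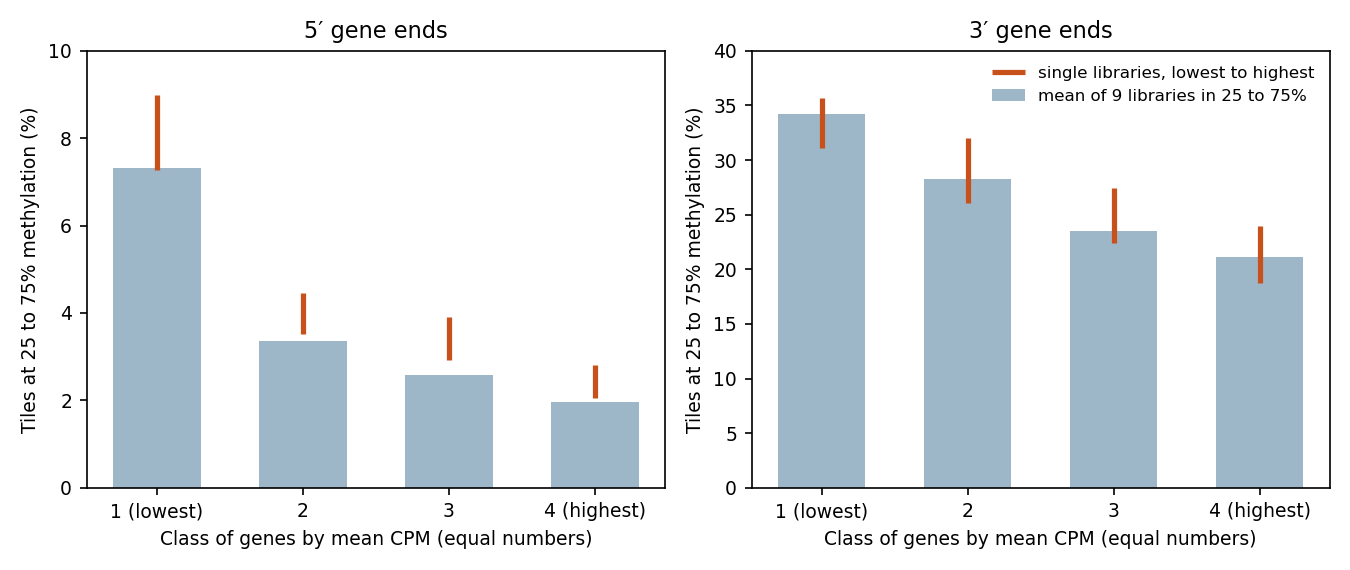
Share of gene-end tiles at 25 to 75% methylation (y axis, percent, different scales) by class of genes ranked by mean CPM (x axis), for 5′ ends on the left and 3′ ends on the right. Bars use the mean of the 9 libraries and lines span the lowest to highest single library; the share runs from 7.33% in the lowest class to 1.96% in the highest near 5′ ends and from 34.2 to 21.1% near 3′ ends.

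Mean methylation of members was 44.3, 44.3, 44.3 and 43.4% over the 4 classes. Near 5′ ends it was 39.8, 36.8, 38.1 and 37.6%, and near 3′ ends 53.1, 57.5, 57.5 and 55.5%. The rule limits this level to 25 to 75%. Across the 1926 genes the mean methylation of a gene's members and its CPM had a Spearman rho of -0.051 (-0.054 to -0.046 with CPM of single libraries). It was -0.105 over 1053 genes near 5′ ends and 0.129 over 484 genes near 3′ ends. Over all gene-end tiles of any level it was -0.186 near 5′ ends (8149 genes) and 0.296 near 3′ ends (1337 genes). These are correlations across genes, which share the libraries and are not replicates.

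CpG number and expression were also set side by side within the promoter windows. Among tiles with up to 4 CpGs, the share that was partly methylated was 18.8, 5.0, 5.76 and 7.87% from the lowest to the highest class of expression (32, 9, 8 and 10 tiles). There the lowest class had the highest share, and the share did not fall further over the other 3. Among tiles with 5 to 8 CpGs the shares were 6.20, 2.01, 1.33 and 1.07% (36, 14, 9 and 7 tiles). Among tiles with 9 or more they were 0.628, 0.429, 0.376 and 0.450% (6, 5, 5 and 7 tiles).

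Most partly methylated tiles had no adjoining member, and some formed runs. A run also ended where the next 100 bp held no measured tile or lay beyond reach of a gene end. A tile without an adjoining member may therefore lack a measured neighbour. The 2729 tiles made 2266 runs of adjoining tiles, of which 359 had 2 or more tiles and held 822 members. The gene with the most members was Pitx1, a homeobox factor of the hindlimb, with 11 of its 14 gene-end tiles. Of these, 7 adjoined each other at chr13:55825101-55825800 by its start coordinate (mean 40.4%, tiles from 29.9 to 47.3%). Pitx1 was expressed at 1.04 CPM on average, with 0.285 and 1.08 CPM in the low libraries and 0.877 and 2.035 in the high ones.

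The longest run lay past the 3′ end of Urm1, a ubiquitin-like protein that takes part in tRNA modification. It covered 8 tiles at chr2:29845301-29846100 with a mean of 58.4% and tiles from 43.9 to 68.3%. Averaged over these tiles, the control libraries were at 64.6, 60.2 and 57.8%, the low libraries at 54.3, 57.6 and 55.8% and the high libraries at 59.1, 60.4 and 55.5%. The control libraries lay above the low ones, and the high libraries overlapped both. Urm1 was expressed at 22.8 to 26.7 CPM in the 6 expression libraries.

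The other genes with many members were Zfp385a (8 tiles, mean 40.6%), the unconventional myosin gene Myo15b (7, 41.1%), Thap3 (7, 52.9%), the Iroquois homeobox gene Irx1 (6, 49.8%), the lysosomal channel gene Mcoln2 (6, 36.2%) and Pigyl (6, 37.8%). Slfn9 also had 6. Of the 1926 genes, 1400 had 1 member, 348 had 2 and 122 had 3.

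Very highly expressed genes also had members. The glycolytic enzyme gene Pkm (3492 CPM) had 1 of 6 tiles near its 3′ end at 57.3%, with single libraries from 46.7 to 70.4%. The actin gene Actg1 (907 CPM) had 1 of 11, near its 5′ end, at 26.4%. Among ribosomal protein genes, Rpl3 (1159 CPM) had 3 of 3 tiles, from 39.1 to 69.1%, Rpl8 (1032 CPM) had 1 at 71.0%, and Rpl5 (819 CPM) had 1 of 8 at 39.9%. The Rpl5 tile spread from 22.2 to 63.3% between libraries. Serbp1 (810 CPM), an mRNA-binding protein gene, had 1 tile at 71.5%. Gm13340 (2998 CPM) had 1 at 44.1%, and its expression is uncertain because predicted genes and pseudogenes can share reads with near-identical copies. At the other end of expression, Zfp819 (0.935 CPM) had a tile at 25.1%, Gm7353 (0.961 CPM) 2 tiles at 73.3 and 73.7%, the immune receptor gene Nfam1 (0.983 CPM) 2 at 46.04 and 67.02%, and F630040K05Rik (0.995 CPM) 1 at 70.5%.

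Imprinted genes, expressed from the copy of a single parent, had 48 partly methylated tiles among 200 gene-end tiles (24%, against 5.304% over all gene ends), at 22 genes. The list was drawn up with earlier results of these data known, and intermediate methylation is what such genes are known for, so the share is a description. Their median was 41.02%, with tiles from 26.8 to 68.4%. Magel2, a paternally expressed gene of the Prader-Willi region, had 5 of 6 tiles partly methylated. Averaged over these, its control libraries were at 50.1, 51.8 and 54.7%, the low libraries at 53.5, 48.6 and 55.3% and the high libraries at 52.8, 56.2 and 50.4%. The groups of Magel2 overlapped throughout.

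Zrsr1, a splicing factor gene expressed from the paternal copy, had 5 of 5 tiles partly methylated, among them the sequence shown. Its control libraries averaged 49.8, 45.8 and 43.2%, the low libraries 36.9, 42.9 and 40.3% and the high libraries 48.0, 45.5 and 46.2%. In this average the low libraries lay under all others, with low 2 close to control 3. At none of the single Zrsr1 tiles did the low libraries lie under all others. Airn, the paternal non-coding transcript that silences Igf2r, had 4 of 4 tiles partly methylated. Its averages were 40.3, 40.7 and 40.2% in control, 37.2, 40.2 and 39.98% in low and 42.2, 45.5 and 50.5% in high libraries. In this average over its tiles the high libraries lay above the others. The average includes 1 tile that is given with the comparisons for its small p in high against control. At each other Airn tile the high libraries overlapped control. Group means at those tiles were 42.7, 39.5 and 46.0% in high against 38.4, 39.1 and 43.9% in control. H19, a maternally expressed non-coding RNA with 1245 CPM, had its single tile at 30.8, 32.4 and 38.4% in control, 36.1, 40.2 and 26.7% in low and 26.3, 16.3 and 24.8% in high libraries. All 3 high libraries were lowest there.

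The paternally expressed genes Mcts2 (4 tiles, mean 37.4%), Nnat (4, 54.8%), Peg10 (2, 40.8%) and Peg3 (1, 54.9%) had members too. So did Gnas (4 tiles, 40.9%), Asb4 (3, 41.2%), the maternal non-coding RNA gene Meg3 (2, 33.5%), the growth inhibitor gene Cdkn1c (2, 46.1%) and Grb10 (1, 41.01%). No tile of the imprinted list passed in a comparison, and neither did any tile of the lists that follow. Limma's unadjusted p was under 0.05 for 3 of the 48 tiles in low against control, 5 in high against control and 7 in high against low. These are 6.25, 10.4 and 14.6%, beside 5.49%, 4.44% and 4.71% of all tiles. Among all members the shares were 7.37, 6.41 and 7.40%, and among partly methylated tiles elsewhere 8.09, 6.21 and 6.89%. The 48 tiles share libraries and some adjoin each other.

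**Figure D3:**
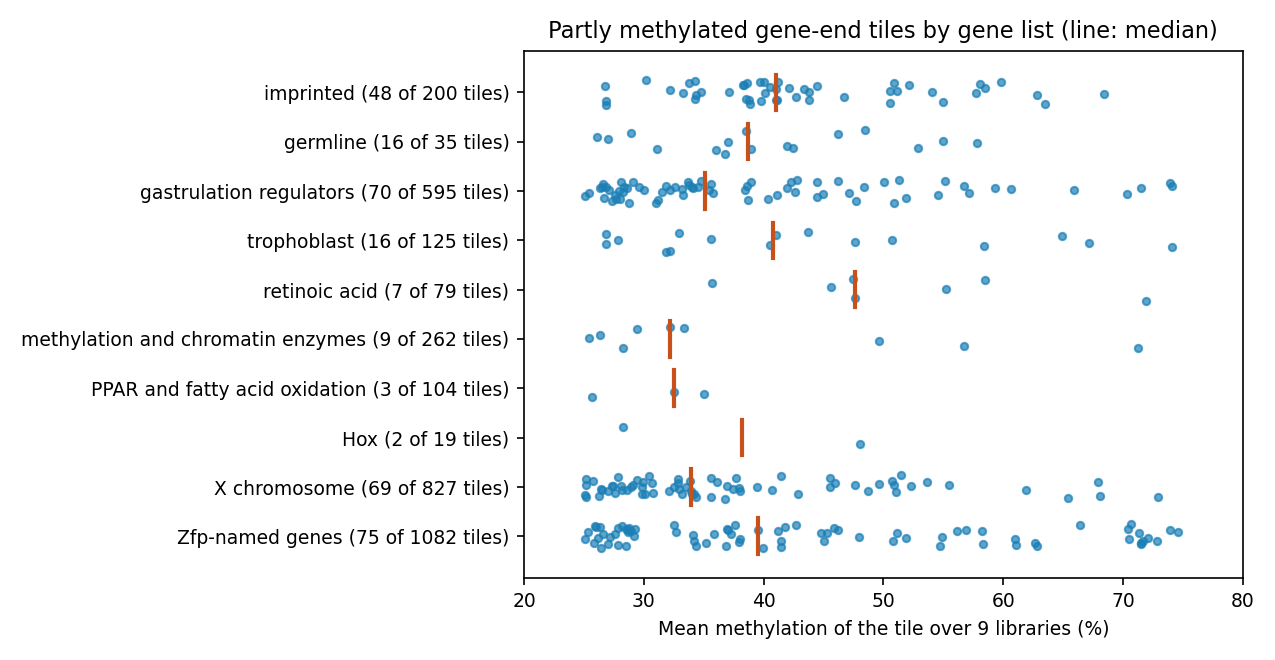
Mean methylation over 9 libraries (x axis, percent) of each partly methylated gene-end tile in 10 gene lists (rows, with members of all gene-end tiles in brackets); dots are tiles, spread vertically for display, and lines are medians. The imprinted list holds 48 of 200 tiles with a median of 41.02% and the gastrulation list 70 of 595 with a median of 35.1%.

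Genes of the germline list, many of which are silenced outside germ cells, had 16 of 35 gene-end tiles partly methylated (45.7%), at 9 genes. Over all gene ends the share was 5.304%, and in the lowest class of expression 10.3%. Of the 70 genes of the list 20 were in the expression table, and 11 had a gene-end tile. Hormad2, a meiotic chromosome axis gene at 1.16 CPM, had 3 of 3 tiles from 36.1 to 38.97%. Zfp42, the pluripotency marker also called Rex1, had 3 of 6 from 27.03 to 46.2% at 1.57 CPM. Piwil2, which binds small RNAs that silence transposons, had 3 of 3 from 28.9 to 48.5% at 1.05 CPM. The germline genes named here were thus all expressed under 2 CPM.

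Regulators of gastrulation had 70 of 595 tiles partly methylated (11.8%), at 41 genes, with a median of 35.1%. Foxc1, a forkhead factor of mesoderm, had 4 of 17 tiles from 26.6 to 50.9%. Gsc, the organizer factor goosecoid, had 4 of 9 from 26.5 to 34.5%. Hand1, a factor of cardiac mesoderm and of trophoblast giant cells, had 3 of 12 from 31.9 to 35.6%. The median difference over the 70 tiles was -2.80 points in low against control, -1.40 in high against control and 0.385 in high against low, beside -0.167, 0.155 and 0.424 over all members.

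Of the smaller lists, trophoblast genes had 16 of 125 tiles (12.8%), retinoic acid genes 7 of 79 (8.86%) and Hox genes 2 of 19 (10.5%). Genes of methylation and chromatin enzymes had 9 of 262 (3.44%), and genes of PPAR signalling and fatty acid oxidation 3 of 104 (2.88%). Dnmt1, the maintenance methyltransferase gene (269 CPM), had its only gene-end tile at 71.3%, from 65.0 to 75.8% over the libraries. The fatty acid genes Fabp3, Acadl and Cpt1a had 1 tile each, at 32.5, 25.7 and 35.03%. Hoxb1 had a tile at 28.3% and Hoxa2 one at 48.0%. In the retinoic acid list Aldh1a2, which makes retinoic acid, had 1 of 11 tiles partly methylated at 47.5%, with libraries from 43.9 to 52.6%. Its expression was 35.3 and 25.8 CPM in control, 1.36 and 10.3 in low and 59.7 and 69.5 in high libraries, and the methylation of the groups overlapped. Genes named Zfp had 75 of 1082 tiles (6.93%).

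The 3 treatment groups had close levels over the 2729 tiles. Library means were 44.1, 43.9 and 44.6% in control, 44.2, 43.7 and 44.4% in low and 44.4, 44.4 and 44.2% in high libraries. Group means were 44.2% ± 0.350 (SD, n = 3), 44.1% ± 0.380 (SD, n = 3) and 44.3% ± 0.101 (SD, n = 3). The groups overlapped, and the widest gap between group means was under the SD of the control libraries. Control 1 and low 1 stood slightly apart: their mean correlation with the other libraries over the members was 0.828 and 0.838, against 0.851 to 0.863 for the other 7.

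**Figure D4:**
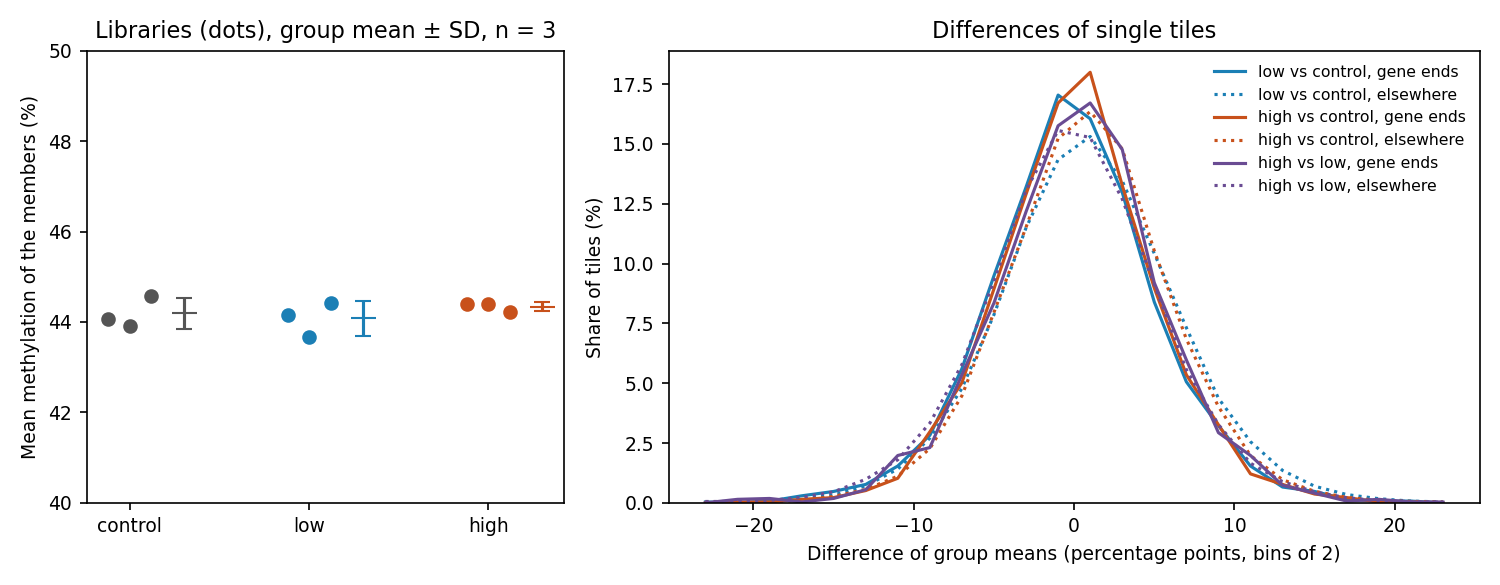
Left, mean methylation of the 2729 tiles (y axis, percent, not from 0) in each library (dots) by group, with group mean and SD (n = 3). Right, share of tiles (y axis, percent) by difference of group means (x axis, percentage points) for the 3 comparisons, solid for the partly methylated gene-end tiles and dotted for partly methylated tiles elsewhere; all curves centre near 0, with member medians of -0.167, 0.155 and 0.424 points.

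No partly methylated gene-end tile passed in any comparison. By limma's test over all 141251 tiles, with Benjamini-Hochberg adjustment and a threshold of 0.05, 0 of 2729 members were called in low against control, high against control and high against low, against 0.0% of all tiles in each. The lowest adjusted p among members was 0.183, 0.655 and 0.754. At an unadjusted p under 0.05 limma gave 201, 175 and 202 members (7.37, 6.41 and 7.40%), against 5.49%, 4.44% and 4.71% of all tiles and 8.09%, 6.21% and 6.89% of partly methylated tiles elsewhere. The members' shares were thus near those of other partly methylated tiles.

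The directions were mixed. In low against control the libraries did not overlap for 124 members higher and 137 lower (4.54 and 5.02%), against 5.26% and 4.27% of all tiles and 6.45% and 3.64% of partly methylated tiles elsewhere. For high against control the counts were 154 and 117 (5.64 and 4.29%), against 5.16% and 4.07% of all tiles and 5.92% and 3.55% elsewhere. For high against low they were 144 and 151 (5.28 and 5.53%), against 4.8% and 4.76% of all tiles and 4.84% and 5.04% elsewhere. Median differences over members were -0.167, 0.155 and 0.424 points, and over all tiles 0.066, 0.084 and 0.006 points. Beside these stands a median absolute difference of 3.24, 3.14 and 3.27 points and a median SE of 4.14 points. Members that differed by over 20 points numbered 3, 2 and 6. The high-against-control median was -0.162 when each library was centred on its own mean, and -0.046 without control 1. The low-against-control median was 0.158 without control 3 and 0.115 without low 2. Without low 2 the high-against-low median was 0.096. The comparisons share libraries, so they are not independent of each other.

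Tiles are named below by the smallest p in each direction, all with adjusted p over the threshold. The tile with the lowest p in low against control lay inside Car11, a carbonic anhydrase relative without enzyme activity, at chr7:45703601-45703700, 982 bp from its 3′ end. Its control libraries were at 36.5, 36.6 and 36.8%, the low libraries at 51.5, 50.6 and 47.8% and the high libraries at 45.8, 47.7 and 44.9%. Both exposed groups lay above control without overlap. The difference was 13.3 points (SE 1.15, adjusted p = 0.183, limma) for low and 9.50 points (adjusted p = 0.655) for high. Car11 was expressed at 3.55 and 3.85 CPM in control, 2.77 and 3.65 in low and 3.24 and 3.28 in high libraries. The low libraries overlapped control and the high ones lay under it (adjusted p = 0.886, limma).

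The next tile lay inside Rundc3a, a RUN domain protein gene, at chr11:102402001-102402100, and also within reach of Slc25a39. It was at 53.5, 60.9 and 59.0% in control, 78.2, 79.4 and 76.1% in low and 71.4, 66.4 and 68.7% in high libraries. Low was higher than control by 20.1 points (SE 2.17, adjusted p = 0.275, limma). The tile outside the start coordinate of Ctnna1, the gene of the cadherin partner alpha-catenin, was at 30.8, 32.9 and 34.6% in control, 52.2, 53.3 and 50% in low and 37.2, 39.5 and 45.8% in high libraries. It differed by 19.04 points in low against control (SE 2.27, adjusted p = 0.425, limma). At both tiles the high libraries lay between the other groups. Ctnna1 was expressed at 295 to 319 CPM and Rundc3a at 4.65 to 5.45 CPM.

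The 2 other tiles higher in low than in control lay at Sobp (9.43 points, adjusted p = 0.655, limma) and past the 3′ end of Tcf25 (15.02 points, adjusted p = 0.655). The Sobp tile, inside the gene near its 5′ end, was at 28.4, 25.4 and 27.9% in control, 35, 34.5 and 40.4% in low and 28.4, 29.3 and 29.7% in high libraries. High libraries were near control there, and the same tile was among those lower in high than in low. Measured tiles next to it at 100 bp on either side differed by -3.27 and 0.620 points in low against control. A difference of that size was thus seen on neither side.

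Lower in low than in control was a tile at Hand1, at chr11:57832001-57832100, inside the gene. Its control libraries were at 38.8, 46.2 and 43.8%, the low libraries at 28.99, 25.5 and 28.6% and the high libraries at 31.5, 37.5 and 39.5%. The low libraries lay under all others, with a difference of -15.2 points in low against control (SE 2.60, adjusted p = 0.644, limma). Expression of Hand1 was 35.4 and 28.7 CPM in control, 42.6 and 49.5 in low and 32.01 and 56.8 in high libraries. That is 0.51 higher in low than in control on the log2(CPM + 1) scale, with limma's adjusted p of 0.928.

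Zfpm1, a cofactor of GATA factors in blood, had a tile near its 3′ end at chr8:122336301-122336400. It was at 51.8, 41.3 and 40.9% in control, 22.5, 29.1 and 26.6% in low and 45.4, 39.9 and 44.3% in high libraries. The low libraries lay under all others. The difference was -18.6 points in low against control (SE 3.31, adjusted p = 0.655, limma) and 17.2 in high against low (adjusted p = 0.828). The 3 measured tiles within 200 bp differed by -2.71, -5.12 and -9.35 points in low against control. They had the same sign, each with an unadjusted p over 0.05.

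A tile beyond the 3′ end of Fblim1, an adaptor of cell-matrix junctions, was at 37.8, 38.9 and 35.3% in control, 29.8, 30.6 and 31.2% in low and 31.3, 31.7 and 33.1% in high libraries. Both exposed groups lay under control, with differences of -6.83 points for low (SE 1.05, adjusted p = 0.570, limma) and -5.32 points for high (adjusted p = 0.944). The neighbouring tile differed by 1.19 and 5.38 points, in the other direction. A tile upstream of the dynein subunit gene Dync1li1 was at 34.5, 30 and 36.5% in control, 26.9, 25.4 and 24.6% in low and 27.4, 25.5 and 26.5% in high libraries. Its exposed groups also lay under control. The fifth tile, in Slfn9, a Schlafen family gene, was at 35.96, 32.8 and 38.2% in control, 26.1, 25 and 28.2% in low and 42.1, 38.2 and 34.9% in high libraries. It was the first of a run of 5 partly methylated tiles, and the next differed by -0.823 points in low against control and 7.69 in high against low.

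In high against control the tile after Car11 among the higher ones lay in Airn, at chr17:12742301-12742400, inside the transcript 990 bp from its start. It was at 35.9, 44.0 and 40.6% in control, 42.8, 42.4 and 46.6% in low and 59.9, 53.6 and 54.6% in high libraries. The high libraries lay above all others, by 15.8 points against control (SE 2.54, adjusted p = 0.929, limma). The tile next to it differed by 2.05 points. Airn expression was 2.08 and 1.34 CPM in control, 1.001 and 1.81 in low and 2.42 and 2.74 in high libraries, and the adjusted p for high against control was 0.866. Airn is expressed at a few CPM, where CPM differences rest on few reads.

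The D130017N08Rik tile shown above was at 28.9, 30.1 and 30.4% in control, 44.4, 35.5 and 39.6% in low and 41.05, 44.5 and 41% in high libraries. Both exposed groups lay above control, by 10.003 points (SE 2.20, adjusted p = 0.725, limma) and 12.3 points (adjusted p = 0.936). The adjoining tile went the same way, by 10.2 points (unadjusted p = 0.0124) and 6.89 points (unadjusted p = 0.0583). This non-coding RNA was at 4.37 and 4.47 CPM in control, 3.57 and 4.30 in low and 4.32 and 3.64 in high libraries. Both control libraries lay above the exposed ones, with limma's adjusted p at 0.937 for low and 0.890 for high.

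Tiles inside Ino80e, a subunit gene of the INO80 chromatin remodeller, and Fanca, of the Fanconi anaemia complex, both near the 3′ end, were higher in both exposed groups. The Ino80e tile was at 70.2, 65.7 and 68.8% in control, 75.2, 73.4 and 73.4% in low and 75, 75 and 74.7% in high libraries. The Fanca tile was at 66.1, 62.6 and 60.1% in control, 71.6, 69.1 and 70.9% in low and 70.1, 72.9 and 74.8% in high libraries. High exceeded control by 6.69 and 9.67 points (adjusted p = 0.936 for both, limma).

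Among the lower ones in high against control was the Surf6 tile shown above. Surf6 encodes a nucleolar protein of ribosome biogenesis. The tile was at 40.2, 38.7 and 40.7% in control, 40.5, 38.1 and 40.7% in low and 33.8, 34.2 and 33.7% in high libraries. The high libraries lay under all others, with differences of -5.98 points against control (SE 0.930, adjusted p = 0.884, limma) and -5.85 points against low (adjusted p = 0.754). The adjoining upstream tile shown above differed by 3.42 points in high against control, in the other direction, with an unadjusted p of 0.0942. Surf6 was expressed at 71.8 and 71.9 CPM in control, 74.9 and 69.1 in low and 70.2 and 67.5 in high libraries. Its high libraries lay under control and overlapped low (adjusted p = 0.893 for high against control, limma).

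The others lay near Armc5, an armadillo repeat protein gene (-8.80 points in high against control), the kinase gene Prkcd (-6.27 points), and Slc7a14, of an amino acid transporter family (-7.98 points). Their adjusted p was 0.944 to 0.945 by limma. The Prkcd tile was at 29.1, 30.7 and 32.8% in control, 28.1, 26.5 and 26.97% in low and 23.4, 23.5 and 26.8% in high libraries. Its low libraries lay under control and overlapped the high ones at their lower end.

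In high against low, 4 of the 5 higher tiles were ones at which all low libraries lay under control. The tile in Ccdc39, a gene of the ciliary axoneme, was at 29.2, 29.3 and 27.97% in control, 25, 18.9 and 22.96% in low and 33.7, 30.7 and 32.8% in high libraries. The tile in Amn, the partner of cubilin in endocytosis by the visceral endoderm, was at 25.6, 29.1 and 27.9% in control, 14.7, 22.5 and 20.1% in low and 30.5, 34.8 and 37.2% in high libraries. The tile upstream of Susd4, a complement inhibitor gene, was at 43.5, 41.4 and 50% in control, 35.2, 23.9 and 26.7% in low and 51.4, 54.8 and 45.8% in high libraries. At these 3 tiles the low libraries lay under all others, by 10.1, 15.04 and 22.1 points against high (adjusted p = 0.754, limma, for each).

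The run of 4 tiles at Amn kept the direction: the 3 neighbours within 200 bp were higher in high than in low by 5.92, 6.33 and 9.21 points (unadjusted p 0.223, 0.381 and 0.053). Amn expression was 60 and 36.3 CPM in control, 63.2 and 70.05 in low and 65.4 and 73.3 in high libraries, and the low and high libraries overlapped. Summed visceral endoderm markers, which include Amn, overlapped between the groups, and so did trophoblast markers, with the higher low library at 81.4 CPM. Epiblast and streak and mesoderm markers were lowest in the high libraries. The decidua set, which shares Hand2 and Bmp2 with the gastrulation list, was highest there. The part of tissue mix in the differences between groups, here and at the other tiles and genes, was not tested.

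Fkbp5, a co-chaperone of the glucocorticoid receptor, had a tile 74 bp upstream of its 5′ end at chr17:28517601-28517700. It was at 41.2, 39.1 and 38.3% in control, 38.4, 41.3 and 36.2% in low and 47.5, 52.8 and 57.1% in high libraries. The high libraries lay above all others, by 13.8 points against low (SE 2.50, adjusted p = 0.805, limma) and 12.97 against control (adjusted p = 0.936). The next tile, at a mean of 13.9%, differed by 1.15 points in high against low. Fkbp5 expression was 75.3 to 84.4 CPM and overlapped.

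Lower in high than in low, beside Surf6, Sobp and Ctnna1, were tiles at the endocytic receptor gene Lrp1 and at Doc2b, a calcium sensor of vesicle release. The Lrp1 tile was at 66.3, 64.8 and 67.4% in control, 71.9, 72.6 and 70.2% in low and 62.8, 59.8 and 65.6% in high libraries, a difference of -8.82 points in high against low (SE 1.57, adjusted p = 0.782, limma). The Doc2b tile, across the gene's end coordinate, was at 24.1, 33.8 and 33.8% in control, 43.8, 29.1 and 36.5% in low and 16.8, 17.6 and 20.3% in high libraries. Its high libraries lay under all others, with a difference of -18.2 points against low (SE 4.09, adjusted p = 0.872, limma).

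**Figure D5:**
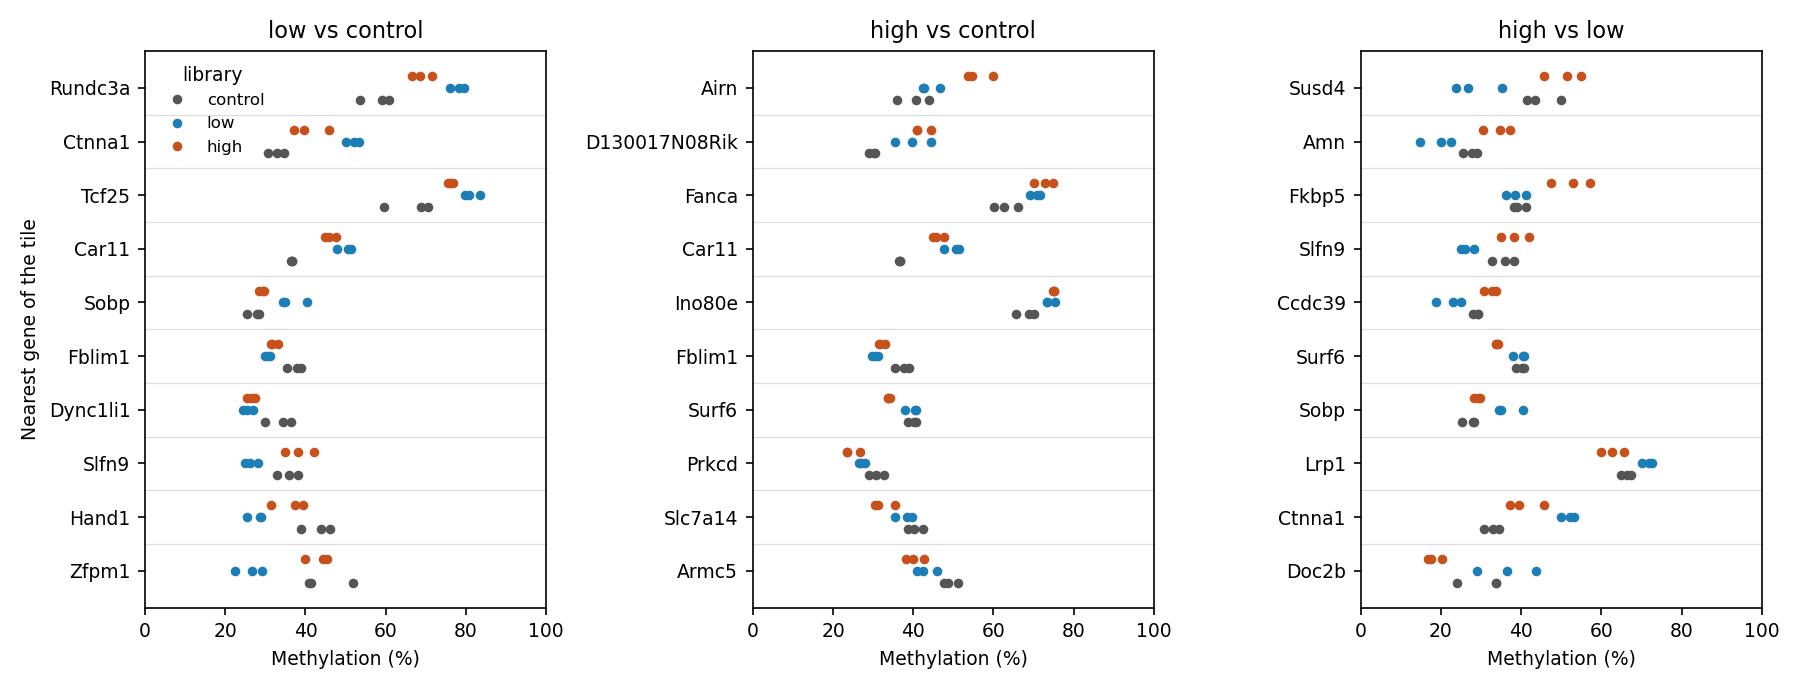
Methylation (x axis, percent) in the 9 libraries (dots, grey control, blue low, orange high) of the 10 tiles with the smallest p in each comparison, 5 per direction, by nearest gene (rows). At Car11 the 3 control libraries lie at 36.5 to 36.8% and all 6 exposed libraries above them; at Doc2b the 3 high libraries lie at 16.8 to 20.3%, under all others.

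The genes beside members did not pass either. By limma on log2(CPM + 1) over 12987 genes, 0 of 1926 genes nearest to a member were called at an adjusted p under 0.05 in each comparison, against 0.0%, 0.0077% and 0.0% of all genes. At an unadjusted p under 0.05 in low against control, 38 were higher and 83 lower (1.97 and 4.31%), against 1.9% and 2.97% of all genes. In high against control 85 were higher and 30 lower (4.41 and 1.56%), against 3.65% and 1.64%. In high against low 178 were higher and 66 lower (9.24 and 3.43%), against 5.69% and 2.22%.

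Some developmental genes beside members were far down in a single library. Hoxb1 was at 36.1 and 27.5 CPM in control, 9.09 and 27.1 in low and 46.9 and 42.8 in high libraries. Hoxa2 was at 0.134 CPM in low 1 and 0.814 to 1.80 CPM in the other libraries. Low 1 was thus lowest for both, as it was for Aldh1a2. A fit without low 2 leaves low 1 as the only low library, so its calls rest on that library.

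The spread between libraries was larger at partly methylated tiles than at others. The median within-group SD was 5.49 points for members, 1.10 for gene-end tiles under 25%, 3.998 for those over 75% and 5.94 for partly methylated tiles elsewhere. Members were chosen at a middle level, and percentages near the limits of their scale have less room to vary. The order of these spreads therefore follows in part from the rule. The coverage of tiles is unknown, so sampling error and differences between libraries cannot be told apart. The widest members were tiles near Eef1d (SD 17.7 points), Znhit2 (16.4), Igsf23 (16.3) and Mtss2 (16.2). At Eef1d, a translation elongation factor gene, the libraries were at 55.6, 43.9 and 53.3% in control, 56.9, 36.7 and 80.4% in low and 34.4, 36.2 and 71.1% in high. The tightest were tiles at the phosphatase gene Ptp4a1 (SD 0.938), Surf6 (1.05), the cytokine receptor gene Cntfr (1.10) and the formin gene Fmn1 (1.20). The Ptp4a1 tile lay between 23.9 and 26.6% in all 9 libraries.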

How the data were processed

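The methylation table holds deposited percent methylation values per 100 bp tile. The precision of single tiles is unknown without coverage and is limited by the 3 libraries per group. The expression table gives CPM computed by the authors, per the file headers, with no counts; 3 lines without a gene were left out. Per the submitters' processing notes, the tools named are Bismark, methylKit and Trim Galore with Bowtie2, and TopHat, Bowtie 0.12.2, edgeR and SAMtools, and the builds mm8 and mm10, without a role. The tiles matched GRCm38 (mm10): all 10634 tiles wholly inside RefSeq GRCm38.p6 promoter windows held a CpG, against 83.3 to 85.1% after shifting positions. Of 12724 expressed genes matched to RefSeq by symbol, 11194 started within 1000 bp of it.

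Groups were read from column names. Members were tiles with a mean of 25 to 75% and a gap of at most 1000 bp to a gene end of the expression table, each credited to the nearest end. A further 105 of 12988 genes had no coordinates. The members and gene lists were chosen with earlier results of these data known. Methylation was tested with limma 3.58.1 (R 4.3.3) without a trend on percent, expression with limma with a trend on log2(CPM + 1) for genes at 1 CPM or more in at least 2 libraries, each in 1 fit of 3 groups, two-sided, with Benjamini-Hochberg adjustment over the whole table. An exact permutation test of 3 against 3 libraries cannot go under 0.1 and was not used. Genes and tiles were named by the smallest p per direction (5 each), most members (8 genes), highest (8) and lowest (4) CPM, up to 3 genes per list, largest and smallest SD (4 each) and distance to a limit. Genes of the imprinted list beyond those, and Slfn9 as a tie, were named after their values were seen. The list called Zfp took symbols beginning so.

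Both limma scripts were tested on simulated data. Alternatives covered the band, the distance, scaling, scale, trend, block, filters and leaving out libraries.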

Additional observations from a re-analysis of the deposited data

How the results depend on the processing

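Of the 24 tiles named for their p-values, 30 comparisons were recomputed under 16 alternatives, and in 480 of 480 the direction was kept and in 0 the adjusted p was under 0.05. The tiles were chosen by p in these same libraries, and several alternatives leave the difference of group means unchanged. The kept direction was therefore given by the choice and is no support. Counts of called tiles were 0 in the 3 comparisons and under most alternatives. With a mean-variance trend they were 1 in low against control, 2 in high against control and 2 in high against low, none a member. Leaving out 1 library gave 0 to 1, 0 to 1 and 0 (1 without control 2, no member). With that trend, members at limma's unadjusted p under 0.05 numbered 115, 84 and 94, against 201, 175 and 202 in the main fit. The share of all tiles with that trend is not given, so whether it fell alike over the table is not known here. The median difference in low against control was -0.489 with centred libraries and -0.348 to 0.158 with 1 library left out. In high against control it was -0.162 with centred libraries, 0.335 for a band of 30 to 70%, -0.046 without control 1 and low 1 (chosen after seeing the data) and -0.092 to 0.344 with 1 library left out. In high against low it was 0.096 to 0.577 with 1 library left out. Genes called were 0, 1 and 0. In high against control the count was 0 with a replicate block and 0 without a trend. Leaving out 1 expression library gave 0 to 65, 0 to 2 and 0 to 291. The highest counts came without low 2, where 1 library stands for its group and is assumed to vary like the others. The rho of methylation with CPM was -0.027 for a band of 30 to 70% and -0.035 within 2000 bp. The cause of these shifts was not tested.

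Deviations of same-numbered libraries correlated weakly, between -0.068 and 0.084 in methylation and between -0.073 and 0.090 in expression. Sampling error also weakens such correlations, so they cannot exclude that libraries were paired. With 2 expression libraries per group, the values for number 2 repeat those for number 1. A replicate block left 0 tiles called in each comparison. Unknown coverage limits what single tiles can show.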

Other observations

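On the X chromosome 69 of 827 gene-end tiles (8.34%) were partly methylated, at 56 genes, with a median of 33.98%. Among the chromosomes this share was lowest on chromosome 18 (3.93%), and after the X it was highest on chromosomes 15 (7.44%), 7 (6.77%) and 17 (6.63%). Slc7a3, a cationic amino acid transporter gene of the X, had 3 of 4 tiles partly methylated, from 34.04 to 68.1%, at 80.4 CPM. The gap junction gene Gjb1 had 3 of 3, from 35.6 to 51.5%, at 1.83 CPM, and the pseudogene Rpl3-ps1 had 2 of 2 at 32.9 and 46%. All samples are labelled male. The X-linked tiles were higher in high than in low libraries for 43 of 69, with a median difference of 2.38 points, beside 53.0% of all members and 0.424 points, and 0 of them were called.

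In expression, Slc7a3 was at 68.0 and 97.4 CPM in control, 117 and 75.5 in low and 69.6 and 55.3 in high libraries, so the high libraries lay under low and overlapped control. Rhox6, an X-linked homeobox gene of the placenta at 1.58 CPM, had tiles at 27.9 and 32.9%. Its averages were 19.6, 31.4 and 30.7% in control, 26.4, 32.6 and 29.9% in low and 32.98, 33.6 and 36.5% in high libraries, so the 3 high libraries were the highest of the 9.

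Other runs of adjoining members differed in level. Slit1, which encodes an axon guidance ligand, had 5 adjoining tiles at a mean of 59.6%, Thap3 5 at 57.7%, and Zfp385a 6 at 40.9%. The runs of 4 at Enkd1 (67.1%) and Cirbp (62.2%) were more methylated than those at Amn (30.04%) and Cacnb3 (31.1%), and at the imprinted gene Mcts2 the 4 tiles lay between 34.3 and 39.8%.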
